A study of Homo sapiens with 9 samples.

Results

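CPS1 encodes carbamoyl phosphate synthetase 1, the mitochondrial enzyme that starts the urea cycle, and its transcript was described here with 6 other urea cycle and arginine genes in human definitive endoderm that had lost 1 or both copies of CHD7. The 7 genes are CPS1, NAGS, SLC25A15, ASS1, ASL, ARG2 and OAT, out of 26240 genes in the count table. They were chosen by a list of urea cycle and arginine genes drawn up with the measured levels known, and CPS1 was picked on its high level in homozygous cells. The levels and fold changes of CPS1 are therefore a description, given with no p-value, while the 6 other genes were tested. All 7 had enough reads to enter the test, which covered 16837 genes.

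The cells were H9, an established human embryonic stem cell line, differentiated to definitive endoderm, the embryonic layer that gives rise to liver, pancreas, gut and lung. CHD7, a chromatin remodelling ATPase, had been deleted with CRISPR/Cas9, and the study asked how gene expression in endoderm depends on it. Homozygous (CHD7-/-), heterozygous (CHD7+/-) and wild-type (CHD7+/+) cells were each represented by 3 RNA sequencing libraries, all from the H9 line. The labels give no deleted interval, clone or day of differentiation and name no separate cultures, so the p-values cover the spread of these libraries alone, and that spread could be technical.

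The urea cycle turns ammonia, which is toxic, into urea. CPS1 makes carbamoyl phosphate from ammonia and bicarbonate and works only when bound by N-acetylglutamate, the product of NAGS. Ornithine carbamoyltransferase (OTC) joins carbamoyl phosphate to ornithine, ASS1 and ASL build arginine from the resulting citrulline, and an arginase splits arginine into urea and ornithine. SLC25A15 carries ornithine into the mitochondrion in exchange for citrulline, and OAT passes ornithine on to glutamate and proline. The whole cycle is known from periportal hepatocytes, where CPS1 is among the most abundant mitochondrial proteins, and the early steps are also known from intestinal epithelium.

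The sequence around the annotated starts sets CPS1 apart from the genes it works with, and its 3 windows are shown beside that of ARG2 for this contrast. Each window runs from 250 bases before to 50 bases after a RefSeq start on GRCh38.p14 and is written 5′ to 3′ on the plus strand, with CpG dinucleotides in capitals. The windows are chr2:210477435-210477734, chr2:210519468-210519767 and chr2:210593105-210593404 for CPS1 and chr14:67619670-67619969 for ARG2.
CPS1 start 1: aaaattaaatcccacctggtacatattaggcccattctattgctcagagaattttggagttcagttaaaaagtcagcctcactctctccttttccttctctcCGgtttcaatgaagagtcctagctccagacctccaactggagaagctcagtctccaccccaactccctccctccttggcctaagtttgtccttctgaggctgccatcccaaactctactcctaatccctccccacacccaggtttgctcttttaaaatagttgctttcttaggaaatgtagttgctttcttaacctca
CPS1 start 2: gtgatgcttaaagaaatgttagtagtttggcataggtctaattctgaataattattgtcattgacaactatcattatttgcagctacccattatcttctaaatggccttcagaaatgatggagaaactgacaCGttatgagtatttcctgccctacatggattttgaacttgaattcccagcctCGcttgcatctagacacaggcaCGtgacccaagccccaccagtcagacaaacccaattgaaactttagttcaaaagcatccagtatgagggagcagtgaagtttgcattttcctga
CPS1 start 3: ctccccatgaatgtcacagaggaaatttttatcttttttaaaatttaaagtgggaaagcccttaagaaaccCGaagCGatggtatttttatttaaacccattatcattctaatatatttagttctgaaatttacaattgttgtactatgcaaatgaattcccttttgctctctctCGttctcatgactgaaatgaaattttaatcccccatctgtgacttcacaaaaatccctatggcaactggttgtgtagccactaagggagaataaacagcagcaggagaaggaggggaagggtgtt
ARG2: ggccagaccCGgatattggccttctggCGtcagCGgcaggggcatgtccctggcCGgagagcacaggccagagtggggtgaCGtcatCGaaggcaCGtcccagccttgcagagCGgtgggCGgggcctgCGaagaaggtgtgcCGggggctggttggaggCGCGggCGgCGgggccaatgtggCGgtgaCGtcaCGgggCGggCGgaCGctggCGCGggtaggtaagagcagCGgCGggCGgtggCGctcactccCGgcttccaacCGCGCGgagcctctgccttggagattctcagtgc

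The CPS1 windows held 1, 3 and 3 CpG dinucleotides, and their GC content was 45.3%, 40.3% and 36.7%. Each of the 7 windows of the other members held more, between 15 in NAGS and 45 in SLC25A15, with 31 in ARG2. Over all 35116 windows of the RefSeq table, the median was 14 CpG dinucleotides and 58.7% GC. Both strands were searched for short motifs. The GC box GGGCGG had no match in the CPS1 windows and 2 to 5 matches in every window of the other members, and 45% of all windows hold it. The forkhead motif TGTTTAC or TGTTTGC, which 7.17% of all windows hold, had no match in any member's window. The C/EBP motif TTNNGNAA matched 2, 1 and 2 times in the CPS1 windows and is present in 36.8% of all windows. The cAMP response element TGACGTCA, found in 1.85% of all windows, occurred 2 times in ARG2, starting at positions -172 and -64 relative to the start site. Such matches describe the letters of these windows only.

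**Figure D1:**
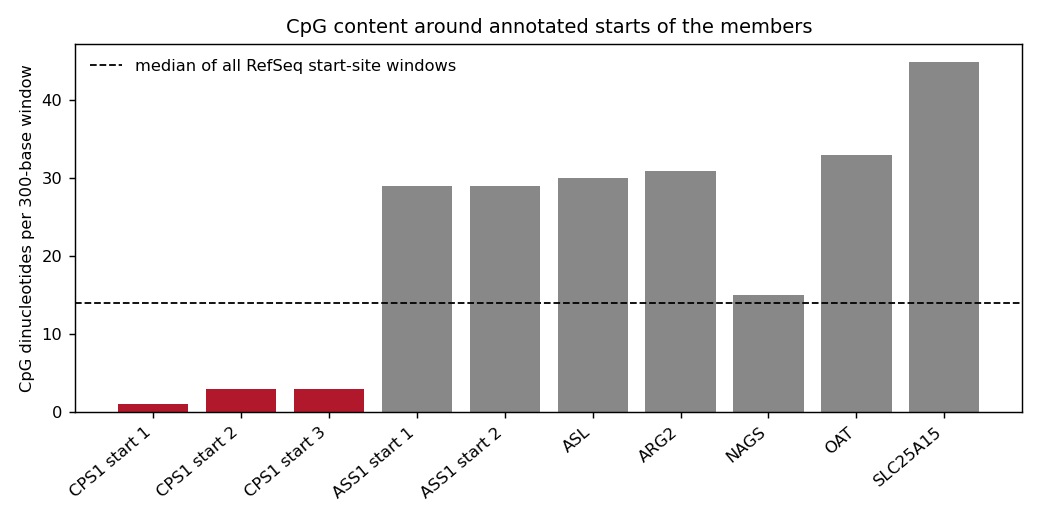
CpG dinucleotides per 300-base window (y axis) for each annotated RefSeq start of the 7 genes (x axis), with the median of all 35116 windows as a dashed line. The 3 CPS1 windows hold 1, 3 and 3 and lie below the line, and every other member window lies above it.

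The targeted gene was examined first as a check of the labels. CHD7 had 56.1, 43.0 and 55.5 CPM (read counts scaled to the normalised library total) in homozygous, 110.4, 130.5 and 129.2 in heterozygous and 194.9, 194.9 and 189.2 CPM in wild-type cells. The genotypes did not overlap and were ordered as the labels imply. Totals ranged from 11854173 to 29849352 counts in the homozygous, 23488722 to 30581464 in the heterozygous and 24781297 to 37519729 in the wild-type libraries. Of 10 definitive endoderm markers all were detected and tested, and their summed level was 7771 to 8798 CPM in homozygous, 9541 to 10498 CPM in heterozygous and 11371 to 12207 CPM in wild-type cells. Most of this sum was CER1, a secreted Nodal and Wnt inhibitor gene, which averaged 4630 CPM in homozygous and 7245 CPM in wild-type cells. For homozygous against wild-type cells 4 of the 10 fell (CER1, MIXL1, FOXA2 and HHEX) and 0 rose, against 4.18% and 3.50% of all tested genes. HHEX was not called without wild-type replicate 2 (adjusted p = 0.0617). Pluripotency markers were also present, with sums over 7 genes of 3133 to 3287, 3245 to 3556 and 3552 to 3687 CPM in the same genotypes.

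CPS1 transcript was highest in homozygous cells, intermediate in heterozygous cells and lowest in wild-type cells. The gene (ENSG00000021826) lies on chromosome 2 at 210477682 to 210679107 on the plus strand of GRCh38. It had 67.8, 59.7 and 61.4 CPM in homozygous, 31.2, 30.9 and 31.5 CPM in heterozygous and 14.5, 14.7 and 15.9 CPM in wild-type cells. Every homozygous library lay above every heterozygous library, and these lay above every wild-type library. The underlying read counts were 811, 1803 and 1231 in homozygous, 958, 846 and 744 in heterozygous and 540, 449 and 382 in wild-type libraries, so each level rests on at least 382 reads. In bulk samples, a larger share of CPS1-expressing cells and more CPS1 RNA per cell cannot be told apart.

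The level averaged 62.9 ± 4.27 CPM in homozygous, 31.2 ± 0.312 CPM in heterozygous and 15.0 ± 0.735 CPM in wild-type cells (SD, n = 3 each). The log2 fold change was 2.07 (SE 0.09) for homozygous against wild-type cells, a 4.19-fold difference in level. It was 1.06 (SE 0.09) for heterozygous against wild-type cells and 1.01 (SE 0.09) for homozygous against heterozygous cells. On the log scale the step between homozygous and heterozygous cells was thus about as large as that between heterozygous and wild-type cells. CPS1 ranked 77 of 16837 genes by its fold change between homozygous and wild-type cells. The same complete order of the 9 libraries was seen in 179 of the tested genes (1.06%), and the opposite order, which CHD7 has, in 200 (1.19%).

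**Figure D2:**
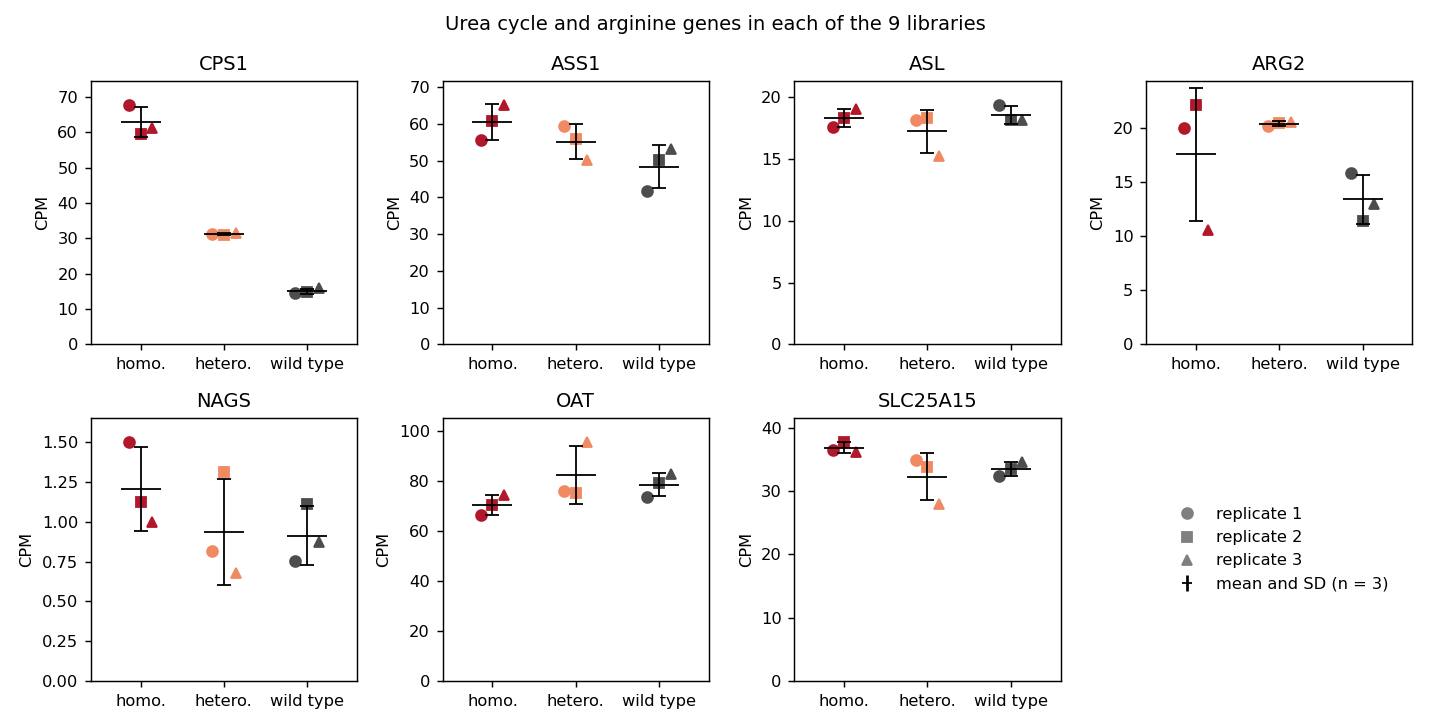
Level in CPM (y axis, from 0) of each of the 7 genes in homozygous, heterozygous and wild-type libraries (x axis), with symbols for replicate number and bars for the mean and SD of 3 libraries. CPS1 falls into 3 separate levels of 59.7 to 67.8, 30.9 to 31.5 and 14.5 to 15.9 CPM, and in ARG2 homozygous replicate 3 lies apart at 10.6 CPM.

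The 6 other members differed far less between genotypes. At an adjusted p below 0.05 in edgeR's quasi-likelihood test, 0 of these 6 were called in any of the 3 comparisons. Among all tested genes, 3.50% were called higher and 4.18% lower in homozygous than in wild-type cells, 0.820% and 1.04% in heterozygous than in wild-type cells, and 0.986% and 1.22% in homozygous than in heterozygous cells. Without homozygous replicate 3, ARG2 was called against wild type in both mutants, as given with that gene. That fit also called more of all genes. It called 2118 against 1293 for homozygous and 624 against 313 for heterozygous against wild-type cells.

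Groups that do not overlap were counted separately. Between homozygous and wild-type cells, 2 of these 6 genes (ASS1 and SLC25A15) were higher in every homozygous library and 0 lower, against 13.2% and 15.7% of all genes. Between heterozygous and wild-type cells, 1 (ARG2) was higher in every heterozygous library and 0 lower, against 11.1% of all genes in each direction. Between homozygous and heterozygous cells, 1 (SLC25A15) was higher and 1 (OAT) lower in every homozygous library, against 9.02% and 10.5% of all genes. The median log2 fold change of the 6 genes was 0.23, 0.058 and 0.11 in these comparisons, beside 0.01, 0.00 and 0.01 over all genes.

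**Figure D3:**
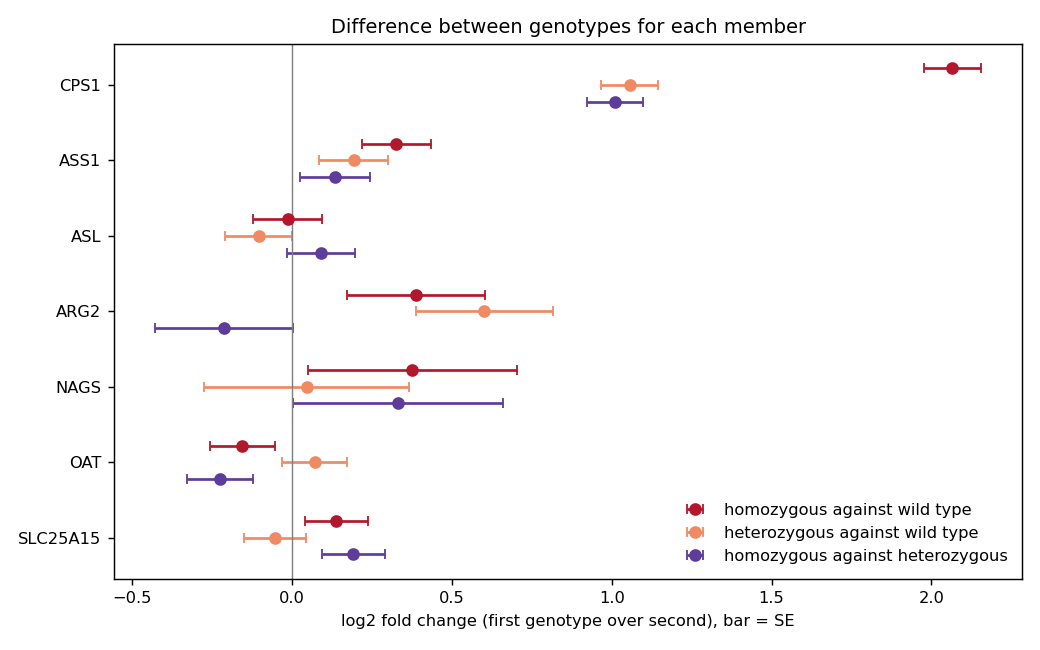
Log2 fold change (x axis, bars are the SE) of each of the 7 genes (y axis) in the 3 comparisons between genotypes. CPS1 lies at 2.07, 1.06 and 1.01, and the other genes lie between -0.23 and 0.60.

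NAGS (ENSG00000161653) encodes N-acetylglutamate synthase, which makes the obligate activator of CPS1. It is located on chromosome 17 at 44004546 to 44009063 (plus strand). It had 1.504, 1.13 and 0.997 CPM in homozygous, 0.81, 1.32 and 0.68 CPM in heterozygous and 0.75, 1.115 and 0.87 CPM in wild-type cells. All 3 genotypes overlapped. These levels rest on 16 to 36 reads per library, and the exact Poisson 95% interval runs from 9.15 to 25.98 for 16 reads and from 25.2 to 49.8 for 36, counting error only. The gene had a log2 fold change of 0.38 for homozygous against wild-type (SE 0.33, adjusted p = 0.520), 0.05 (SE 0.32, adjusted p = 0.978) for heterozygous against wild-type and 0.33 (SE 0.33, adjusted p = 0.613) for homozygous against heterozygous cells. No difference between genotypes was detectable for NAGS at this depth.

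SLC25A15 (ENSG00000102743), the mitochondrial carrier that exchanges ornithine and citrulline, lies on chromosome 13 at 40789412 to 40810111 (plus strand). It had 36.5, 37.8 and 36.1 CPM in homozygous, 34.9, 33.8 and 28.0 CPM in heterozygous and 32.4, 33.5 and 34.5 CPM in wild-type cells. The homozygous libraries lay just above all others, but the differences did not pass the test. In homozygous cells its log2 fold change was 0.14 against wild type (SE 0.10, adjusted p = 0.421) and 0.19 (SE 0.10, adjusted p = 0.317) against heterozygous cells. Heterozygous against wild-type cells gave -0.05 (SE 0.10, adjusted p = 0.877).

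ASS1 (ENSG00000130707), argininosuccinate synthetase, joins citrulline to aspartate and sits on chromosome 9 at 130444929 to 130501274 (plus strand). It had 55.6, 60.8 and 65.2 CPM in homozygous, 59.5, 56.0 and 50.1 CPM in heterozygous and 41.7, 50.3 and 53.1 CPM in wild-type cells. Every homozygous library was above every wild-type library, while the heterozygous libraries overlapped both. ASS1 had a log2 fold change of 0.33 for homozygous against wild-type (SE 0.11, adjusted p = 0.0898), 0.19 (SE 0.11, adjusted p = 0.478) for heterozygous against wild-type and 0.13 (SE 0.11, adjusted p = 0.526) for homozygous against heterozygous cells. ASS1 has many processed pseudogenes that could share its reads, and the pseudogene ASS1P2 had 0.07 to 0.30 CPM over the 9 libraries.

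ASL (ENSG00000126522), argininosuccinate lyase, releases arginine and fumarate and lies on chromosome 7 at 66075798 to 66093558 (plus strand). Its level was 17.6, 18.4 and 19.1 CPM in homozygous, 18.2, 18.3 and 15.3 CPM in heterozygous and 19.4, 18.2 and 18.1 CPM in wild-type cells. The genotypes overlapped, and its log2 fold changes were close to 0. They were -0.01 (SE 0.11, adjusted p = 0.953) for homozygous against wild-type, -0.11 (SE 0.11, adjusted p = 0.736) for heterozygous against wild-type and 0.09 (SE 0.11, adjusted p = 0.680) for homozygous against heterozygous cells. A transcript annotated on the same strand, AC068533.4, overlaps exons of ASL, and reads of that overlap are uncertain.

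ARG2 (ENSG00000081181), the mitochondrial arginase, is the arginase of tissues other than liver and lies on chromosome 14 at 67619798 to 67651720 (plus strand). It had 20.1, 22.1 and 10.6 CPM in homozygous, 20.2, 20.5 and 20.6 CPM in heterozygous and 15.9, 11.4 and 13.0 CPM in wild-type cells. The heterozygous libraries lay above all wild-type libraries, while in homozygous cells replicate 3 lay below every wild-type library and the other libraries above them. With all libraries, its log2 fold change was 0.39 for homozygous against wild-type (SE 0.22, adjusted p = 0.311), 0.60 (SE 0.21, adjusted p = 0.225) for heterozygous against wild-type and -0.21 (SE 0.22, adjusted p = 0.616) for homozygous against heterozygous cells. None of these passed the test. Without homozygous replicate 3, the value against wild type was 0.66 (adjusted p = 0.00917) for homozygous and 0.60 (adjusted p = 0.0185) for heterozygous cells, and 0.05 (adjusted p = 0.858) between the mutants. The heterozygous value was also called when the heterozygous and wild-type libraries were fitted alone (adjusted p = 0.0233). Over all genes, these fits called 624 and 604 for heterozygous against wild-type cells, against 313 with all libraries. Among the settings listed at the end, 16 left the heterozygous and 17 the homozygous value of ARG2 against wild type uncalled. Without wild-type replicates 2 and 3 in turn, the adjusted p of the heterozygous value was 0.667 and 0.622.

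Homozygous replicate 3 also had the lowest level of some pluripotency genes among the homozygous libraries. POU5F1, a core pluripotency factor, had 122, 114 and 33.5 CPM in the homozygous libraries, NANOG had 5.27, 5.96 and 1.45 CPM, and SOX2 had 5.93, 6.39 and 0.85 CPM. LIN28A, an RNA-binding protein gene, did not split this way, with 2013, 1969 and 2020.5 CPM, nor did TDGF1, a Nodal co-receptor gene, with 902, 817 and 850 CPM. The sum of the 7 markers, 3133 to 3287 CPM in these libraries, is mostly LIN28A and TDGF1. Among the heterozygous libraries replicate 3 was again lowest, with POU5F1 at 193, 168 and 116 CPM. NANOG was there at 16.6, 14.7 and 8.43 CPM and SOX2 at 19.1, 15.9 and 5.59 CPM. ARG2 in these heterozygous libraries was at 20.2, 20.5 and 20.6 CPM. Among the wild-type libraries replicate 1 was highest in all 4 genes. POU5F1 was there at 95.3, 56.1 and 57.4 CPM and ARG2 at 15.9, 11.4 and 13.0 CPM. NANOG had 12.4, 9.12 and 9.63 CPM and SOX2 had 7.11, 4.07 and 3.36 CPM in these wild-type libraries. The part of these differences in the ARG2 values was not tested. Exons of ARG2 overlap those of VTI1B on the opposite strand, and no source used here gives the strand setting of the counting. VTI1B, a vesicle SNARE protein gene, averaged 62.3 CPM in homozygous, 64.0 CPM in heterozygous and 68.9 CPM in wild-type cells, and its log2 fold change for homozygous against wild-type cells was -0.14 (adjusted p = 0.379).

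OAT (ENSG00000065154), ornithine aminotransferase, lies on chromosome 10 at 124397303 to 124418976 (minus strand). It had 66.3, 70.2 and 74.2 CPM in homozygous, 76.0, 75.2 and 95.6 CPM in heterozygous and 73.6, 78.9 and 82.6 CPM in wild-type cells. Every homozygous library was below every heterozygous library, and the highest value of 95.6 CPM came from a single heterozygous library. OAT had a log2 fold change of -0.16 for homozygous against wild-type (SE 0.10, adjusted p = 0.387), 0.07 (SE 0.10, adjusted p = 0.835) for heterozygous against wild-type and -0.23 (SE 0.10, adjusted p = 0.266) for homozygous against heterozygous cells.

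Levels of different genes were compared per kilobase of exon, with exons joined over all annotated transcripts of a gene. For CPS1 this joined length was 10775 bases over 13 transcripts. A joined length above that of the transcripts made lowers the level per kilobase and the ranks and shares drawn from it. In homozygous cells OAT (20.7 ± 1.18 CPM per kilobase), SLC25A15 (20.0 ± 0.473) and ASS1 (19.8 ± 1.58) were highest, and their libraries overlapped. ARG2 (7.28 ± 2.55), CPS1 (5.84 ± 0.396) and ASL (5.75 ± 0.229) followed, again with overlapping libraries, and NAGS was lowest at 0.428 CPM per kilobase. In heterozygous cells CPS1 reached 2.90 ± 0.0290 CPM per kilobase, below ASL at 5.40 in every library. In wild-type cells CPS1 was at 1.39 ± 0.0682 CPM per kilobase, below ASL at 5.81 and ARG2 at 5.55 and above NAGS at 0.323. CPS1 made up 8.03%, 6.75% and 7.18% of the summed level per kilobase of the 7 genes in homozygous, 3.70%, 3.75% and 3.83% in heterozygous and 1.998%, 1.95% and 2.005% in wild-type libraries. Even at its highest it was a gene of middling level, at rank 6010 of 16532 tested genes with a known length in homozygous cells and rank 10554 in wild-type cells.

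**Figure D4:**
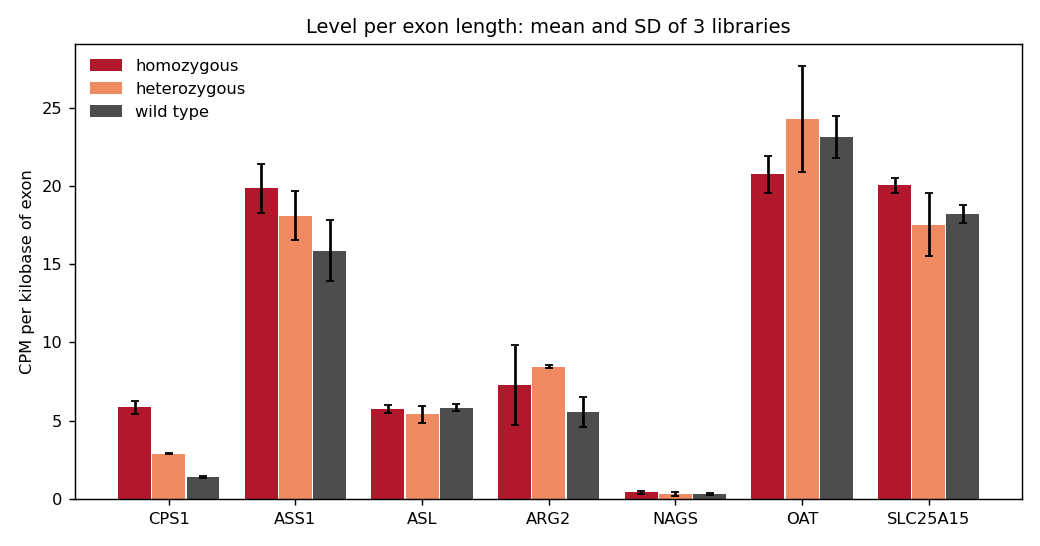
Level per kilobase of exon (y axis, CPM per kilobase, from 0) of the 7 genes (x axis) as the mean of 3 libraries with the SD, in homozygous, heterozygous and wild-type cells. CPS1 stands at 5.84, 2.90 and 1.39, while OAT, ASS1 and SLC25A15 are at 15.9 or more in each genotype.

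The remaining genes of the cycle were taken from a list of 11, of which 9 had a row and 8 were tested. OTC, the enzyme next to CPS1, and CA5A, a mitochondrial carbonic anhydrase, had no row in the table and were not analysed here. ARG1, the cytosolic arginase of liver, had 16 to 50 reads per library, or 0.68 to 1.34 CPM, and its log2 fold change for homozygous against wild-type cells was -0.01 (adjusted p = 0.988). For homozygous against wild-type cells 1 of 8 rose and 0 fell, with a median log2 fold change of -0.12, and in both other comparisons 0 of 8 were called (medians 0.13 for heterozygous against wild-type and -0.09 for homozygous against heterozygous cells). Of all tested genes, 3.50% rose and 4.18% fell between homozygous and wild-type cells. The shares were 0.820% and 1.04% for heterozygous against wild-type and 0.986% and 1.22% for homozygous against heterozygous cells.

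The gene that rose was GLUL, glutamine synthetase, which binds ammonia into glutamine and in liver marks the perivenous cells that lack CPS1. GLUL had 481, 464 and 474 CPM in homozygous, 420, 435 and 428 CPM in heterozygous and 388, 392 and 387 CPM in wild-type cells. Its libraries were ordered by genotype without overlap, over a far smaller range than those of CPS1. The log2 fold change for homozygous against wild-type cells was 0.28 (SE 0.07, adjusted p = 0.0207). The call was lost without wild-type replicate 1, 2 or 3 or homozygous replicate 1, with adjusted p between 0.0666 and 0.109.

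Of 27 genes that use or move arginine and ornithine, all were tested. Between homozygous and wild-type cells 3 rose and 1 fell (median 0.04), between heterozygous and wild-type cells 0 were called (median 0.05, lowest adjusted p = 0.0881), and between homozygous and heterozygous cells 1 rose and 0 fell (median 0.01). Of all tested genes, 3.50% rose and 4.18% fell in the first of these comparisons. The shares were 0.820% and 1.04% in the second and 0.986% and 1.22% in the last. NOS3, endothelial nitric oxide synthase, which uses arginine to make nitric oxide, had 5.52, 5.40 and 5.29 CPM in homozygous, 3.06, 3.14 and 2.54 CPM in heterozygous and 2.79, 1.74 and 2.78 CPM in wild-type cells. The homozygous libraries lay above all others, and the heterozygous and wild-type libraries overlapped. Its log2 fold change was 1.15 (SE 0.20, adjusted p = 0.00395) against wild-type and 0.88 (SE 0.20, adjusted p = 0.0417) against heterozygous cells. The call against heterozygous cells was lost without wild-type replicate 3 or any of the 6 mutant libraries, with adjusted p between 0.0622 and 0.124, and when the 6 mutant libraries were fitted alone (adjusted p = 0.0522).

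GATM and SLC6A8 belong to creatine metabolism. GATM makes the creatine precursor guanidinoacetate from arginine and had 137, 114 and 120 CPM in homozygous, 104, 109 and 92.8 CPM in heterozygous and 95.8, 94.8 and 90.5 CPM in wild-type cells. The homozygous libraries were above all others. For homozygous against wild-type cells its log2 fold change was 0.40 (SE 0.09, adjusted p = 0.0171), and the call was lost without wild-type replicate 2 or 3 or homozygous replicate 1 (adjusted p = 0.0682 to 0.0944). SLC6A8, the creatine transporter, averaged 91.4 ± 6.53 CPM in homozygous, 80.5 ± 3.13 CPM in heterozygous and 73.8 ± 2.24 CPM in wild-type cells (SD, n = 3 each). For homozygous against wild-type cells its log2 fold change was 0.31 (SE 0.08, adjusted p = 0.0334). This call was lost without any of the wild-type libraries, heterozygous replicate 2, or homozygous replicate 1 or 2 (adjusted p = 0.0568 to 0.166), and with no filter on low counts (adjusted p = 0.0566).

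ALDH18A1, which makes the glutamate semialdehyde from which proline and ornithine are built, was the gene that fell. It had 75.5, 77.9 and 86.3 CPM in homozygous and 93.8, 103.9 and 105.1 CPM in wild-type cells, with a mean of 80.8 ± 4.02 CPM in heterozygous cells (SD, n = 3). Its log2 fold change for homozygous against wild-type cells was -0.34 (SE 0.08, adjusted p = 0.0292), and it was lost as a call without wild-type replicate 2 or 3 or homozygous replicate 1 or 2 (adjusted p = 0.0761 to 0.144). Against a threshold of a 1.5-fold change, none of GLUL, NOS3, GATM, SLC6A8 and ALDH18A1 was called. Of 5 tested genes of pyrimidine synthesis, the other route that uses carbamoyl phosphate, 0 were called in any comparison. Their smallest adjusted p was 0.131 for homozygous and 0.204 for heterozygous cells versus wild type, and 0.361 between the mutants. Homozygous cells had 3.50% of all tested genes called higher and 4.18% lower than wild type. Heterozygous cells had 0.820% and 1.04%, and homozygous cells had 0.986% and 1.22% when set beside heterozygous cells. With shares this low, 0 calls among 5 genes cannot show that this route was unaffected.

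**Figure D5:**
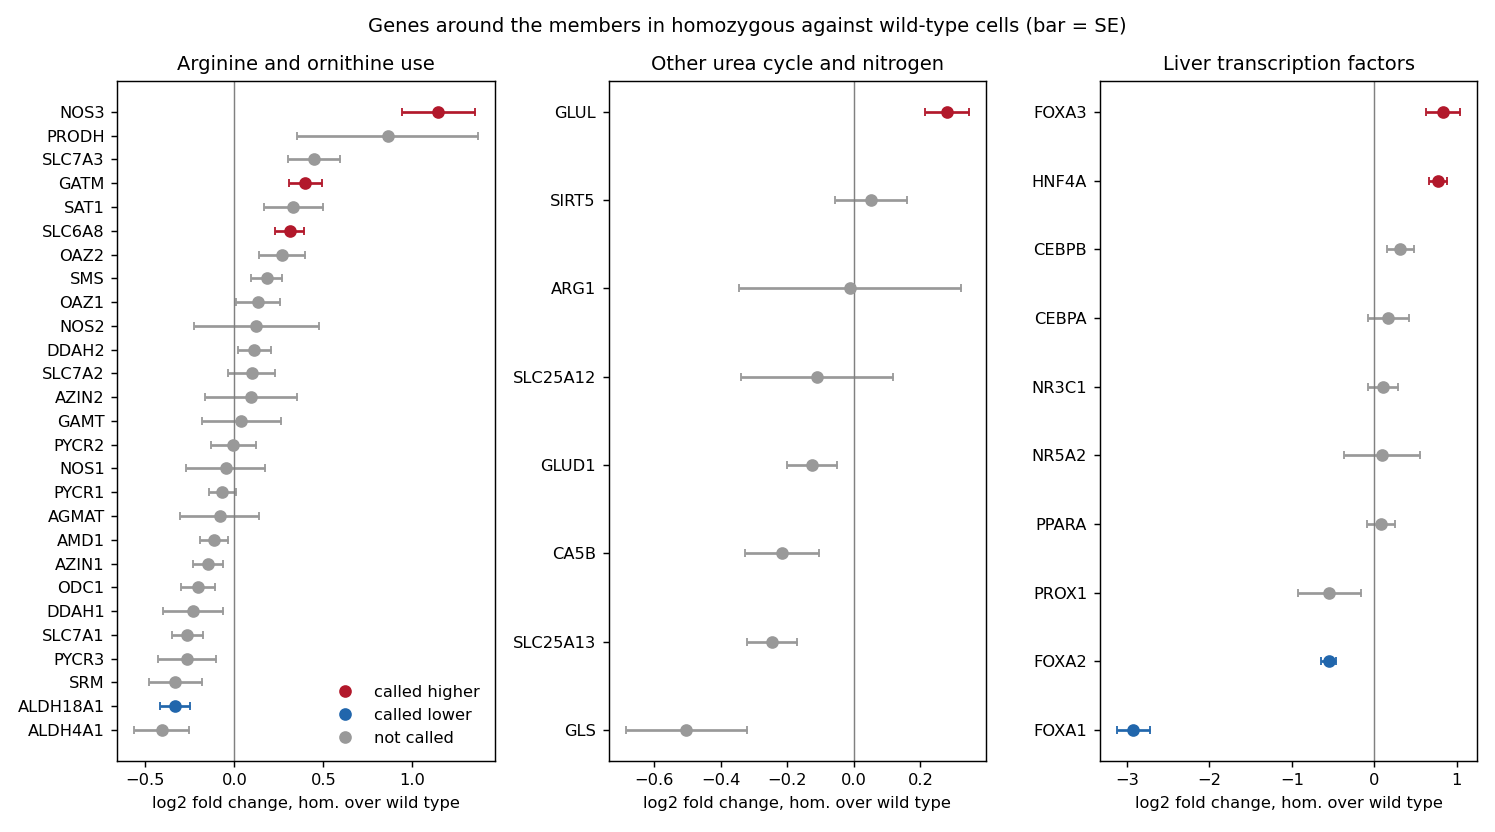
Log2 fold change of homozygous over wild-type cells (x axis, bars are the SE) for the 27 genes of arginine and ornithine use, the 8 other tested genes of the urea cycle and nitrogen handling, and 10 liver transcription factors (y axes). Coloured points passed an adjusted p below 0.05; they are 3 higher and 1 lower, 1 higher, and 2 higher and 2 lower in these panels, whose x axes differ in range.

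Transcription factors of liver genes moved in both directions. Of 13 on the list, 11 had a row and 10 were tested. For homozygous against wild-type cells 2 rose (HNF4A and FOXA3) and 2 fell (FOXA1 and FOXA2), with a median of 0.10. For heterozygous against wild-type cells 0 rose and 1 fell (FOXA1), and for homozygous against heterozygous cells 1 rose (HNF4A) and 1 fell (FOXA1). The shares of all tested genes that rose and fell were 3.50% and 4.18%, 0.820% and 1.04%, and 0.986% and 1.22% in these comparisons. HNF4A, a nuclear receptor of liver and gut epithelium, had 41.7, 38.2 and 36.9 CPM in homozygous cells, beside means of 21.8 ± 2.69 CPM in heterozygous and 22.7 ± 1.91 CPM in wild-type cells (SD, n = 3 each). Its log2 fold change was 0.77 (SE 0.11, adjusted p = 0.000873) against wild-type and 0.83 (SE 0.11, adjusted p = 0.00144) against heterozygous cells. The heterozygous and wild-type means of HNF4A were close, with a log2 fold change of -0.06 (adjusted p = 0.880). The part of HNF4A in the CPS1 levels was not tested.

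FOXA3, a forkhead factor of liver, averaged 43.96 ± 10.5 CPM in homozygous, 36.3 ± 2.76 CPM in heterozygous and 24.5 ± 7.99 CPM in wild-type cells (SD, n = 3 each), and libraries of the homozygous and wild-type cells overlapped. It rose by 0.84 on the log2 scale in homozygous cells against wild type (SE 0.21, adjusted p = 0.0265), a call lost with the 6 libraries of the comparison alone (adjusted p = 0.0558) and without wild-type replicate 2 or 3 or homozygous replicate 1 or 2 (adjusted p = 0.0812 to 0.127). The pioneer factor FOXA1 averaged 2.68 CPM in homozygous, 11.6 CPM in heterozygous and 20.6 CPM in wild-type cells. It fell by 2.92 on the log2 scale in homozygous cells (SE 0.20, adjusted p = 2.16e-06) and by 0.83 in heterozygous cells (SE 0.17, adjusted p = 0.0266) against wild type. The heterozygous call was lost without wild-type replicate 1 or 3 or any heterozygous library (adjusted p = 0.0597 to 0.113). FOXA2 fell by 0.55 in homozygous cells (SE 0.09, adjusted p = 0.00303). Among these 4 factors, only FOXA1 in homozygous cells was still called against a threshold of a 1.5-fold change.

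Markers of the cell types in which CPS1 is known were examined beside it. Of 18 hepatocyte and fetal liver genes, 11 had a row and 3 were tested. Their summed level was 29.5 to 45.1 CPM in homozygous, 28.5 to 33.2 CPM in heterozygous and 19.4 to 23.7 CPM in wild-type libraries. The defining markers albumin (ALB) and alpha-fetoprotein (AFP) were near 0, with at most 0.23 and 0.26 CPM in any library. The sum came largely from APOA2, an apolipoprotein of high density lipoprotein, which had 25.5, 35.8 and 21.9 CPM in homozygous, 24.3, 21.3 and 28.3 CPM in heterozygous and 16.4, 12.8 and 12.7 CPM in wild-type cells. Against wild type, APOA2 rose on the log2 scale by 0.99 in homozygous cells (SE 0.18, adjusted p = 0.00426) and by 0.81 in heterozygous cells (SE 0.18, adjusted p = 0.0386). The heterozygous call was lost without wild-type replicate 2 or 3, any heterozygous library or homozygous replicate 1 (adjusted p = 0.0577 to 0.205). The other 2 tested genes, APOA1 and APOB, were not called in any comparison. APOA1 averaged 6.72 CPM in homozygous, 5.29 CPM in heterozygous and 6.22 CPM in wild-type cells, and APOB 1.07, 0.904 and 0.630 CPM. Against wild type, 3.50% of all tested genes rose and 4.18% fell in homozygous cells. In heterozygous cells 0.820% rose and 1.04% fell.

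Of 9 intestinal markers 2 had a row. VIL1, a microvillus protein gene, rose in homozygous cells by 1.31 on the log2 scale against wild type (SE 0.17, adjusted p = 0.000404), and LGR5, an R-spondin receptor gene of intestinal stem cells, fell by 1.28 (adjusted p = 0.00412). The summed level of both was 19.5 to 22.4 CPM in homozygous, 21.2 to 32.5 CPM in heterozygous and 24.9 to 26.2 CPM in wild-type libraries. Mesoderm markers, 6 of 7 with a row, summed to 23.0 to 40.6 CPM in homozygous, 36.6 to 46.5 CPM in heterozygous and 49.1 to 67.4 CPM in wild-type libraries, and KDR, the VEGF receptor gene, fell by 1.05 on the log2 scale in homozygous cells against wild type (adjusted p = 0.00419). Of the 4 tested mesoderm markers 0 rose and 3 were not called in that comparison, and the highest log2 fold change was 0.51. Of all tested genes, 3.50% rose and 4.18% fell there. The 6 neuroectoderm markers summed to 888 to 980, 987 to 999 and 1048 to 1060 CPM in the same genotypes. The part of these markers in the CPS1 levels was not tested.

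CPS1 shares its upstream region with LANCL1, a glutathione-binding protein gene. LANCL1 lies head to head with CPS1 on the minus strand, and its annotated start at 210477652 is 30 bases from that of CPS1 and inside the first window shown above. LANCL1 had 82.7, 61.2 and 68.1 CPM in homozygous, 66.3, 74.5 and 79.1 CPM in heterozygous and 59.8, 54.5 and 53.0 CPM in wild-type cells. The mutant libraries were all above the wild-type libraries, but the log2 fold changes of 0.34 (SE 0.11, adjusted p = 0.0942) for homozygous and 0.39 (SE 0.11, adjusted p = 0.121) for heterozygous cells did not pass the test. Of all tested genes, 13.2% were higher in every homozygous and 11.1% in every heterozygous library than in every wild-type library. In all, 9 other genes with a row start within 1 Mb of CPS1, and none of those tested was called in any comparison. GENCODE release 29 lists 13 transcripts of CPS1 with 6 distinct coding starts, 4 of which fall inside the windows shown, and counts per gene do not show which start was used.

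The genes whose profile over the 9 libraries was closest to that of CPS1 were found by the root mean square difference of gene-centred log2(CPM + 0.5), over 13846 genes with a mean of at least 1 CPM. They were ENPEP at 0.170, HECW1 at 0.192, FAAH at 0.204, an unnamed gene (ENSG00000289643) at 0.232 and GARIN1B at 0.243. ENPEP, an aminopeptidase of the cell surface that cleaves angiotensin, averaged 10.5 CPM in homozygous, 3.88 CPM in heterozygous and 2.16 CPM in wild-type cells. FAAH, which breaks down fatty acid amides, averaged 23.6 CPM in homozygous, 10.3 CPM in heterozygous and 5.92 CPM in wild-type cells. None of the 6 other urea cycle and arginine genes was among these 5, which follows from their far smaller fold changes.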

How the data were processed

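For each genotype, 3 RNA sequencing libraries of endoderm made from H9 cells were analysed. The deposited values are raw read counts per Ensembl gene, 1 column per library, made by the authors with FastQC, Trimmomatic, HISAT2, SAMtools and HTSeq on hg38, per the submitters' processing notes. No source used here gives the annotation release or strand setting. Genotypes came from the labels. In R 4.3.3, edgeR 4.0.16 (filterByExpr, TMM factors of 0.973 to 1.01, quasi-likelihood fit of all 9 libraries, genotype only) tested 16837 genes and removed 9403. Tests were two-sided, with Benjamini-Hochberg adjustment over all tested genes and a threshold of 0.05. The members and gene lists were chosen with earlier results of these data known. A gene of the liver factor list is not reported here. The text names CHD7, all members, called genes of the pathway and liver factor lists, OTC and ARG1, the 5 genes closest to CPS1 in profile, and neighbours. ASS1P2, AC068533.4, VTI1B and the cell type markers named were added as checks of a result. Gene coordinates are from GENCODE 29 on GRCh38. The fit was tested on simulated data. No replicate pair agreed within sampling noise.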

Additional observations from a re-analysis of the deposited data

How the results depend on the processing

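Other settings were scaling by relative log expression or upper quartile, no low-count filter, at least 1 CPM in 3 libraries, DESeq2 1.42.0, limma-voom (limma 3.58.1), a fit of only the 6 libraries compared, a replicate block, a 1.5-fold threshold test, and leaving out each library. Across all of these the log2 fold change of CPS1 was 2.01 to 2.11 for homozygous against wild-type, 1.03 to 1.09 for heterozygous against wild-type and 0.96 to 1.05 for homozygous against heterozygous cells. The count of called genes for homozygous against wild-type cells was 1293, against 281 in the 1.5-fold test and 651 to 2118 when 1 library was left out (651 without wild-type replicate 2, 700 without replicate 3 and 2118 without homozygous replicate 3). For heterozygous against wild-type cells it was 313, against 89 in the 1.5-fold test, 604 with 6 libraries, 574 with DESeq2 and 130 to 624 with 1 library left out (135 and 130 without wild-type replicates 2 and 3, 173 and 147 without heterozygous replicates 1 and 2, and 624 without homozygous replicate 3). For homozygous against heterozygous cells it was 372, against 67 in the 1.5-fold test, 177 with 6 libraries, 833 with DESeq2 and 141 to 377 with 1 library left out (228 and 238 without wild-type replicates 2 and 3, 242 and 141 without heterozygous replicates 1 and 2, and 211 without homozygous replicate 2). Same-numbered libraries correlated between -0.35 and 0.39 in their deviations from the genotype means, and differently numbered libraries between -0.58 and 0.56. With 3 libraries per genotype, these values cannot settle whether the replicate numbers pair the libraries. With the number as a replicate block, 1503, 492 and 461 genes were called in the 3 comparisons.

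Changes of sign occurred in values near 0 and in that of ARG2 for homozygous against heterozygous cells, which was -0.21 with all libraries. For homozygous against wild-type cells, ARG1 had a log2 fold change of 0.031 with upper quartile scaling, 0.042 with the replicate block, 0.0094 with DESeq2 and -0.18 to 0.27 with 1 library left out. ASL in that comparison was at 0.029 with upper quartile scaling, 0.0074 with the 1 CPM filter and -0.041 to 0.016 with 1 library left out. For heterozygous against wild-type cells, leaving out 1 library gave -0.27 to 0.22 for NAGS, -0.052 to 0.14 for OAT and -0.11 to 0.037 for SLC25A15. ARG2 for homozygous against heterozygous cells was at -0.44 without homozygous replicate 2 and 0.053 without replicate 3. The cause was not tested. NAGS and ARG1 rest on 16 to 50 reads per library.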
